A study of Mus musculus with 2 samples.

Results

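Eomes, Tbx21, Zeb2, Id2, Tcf7, Prdm1, Klf2, Gata3, Zfp683 and Ikzf2 encode transcription factors known from natural killer (NK) cells and type 1 innate lymphoid cells (ILC1s). They were chosen by gene name with earlier results of these data known. Counts of members below, set beside shares of all genes, are therefore descriptions and not tests. All 10 were present among the 31053 genes of the deposited count matrices. The cells were CD45+CD11b+ non-parenchymal cells sorted from livers of C57BL/6 mice and profiled by droplet single-cell RNA sequencing of transcript 3′ ends. There were 2 groups, RES (mice whose liver fibrosis had resolved) and Ctrl (uninjured controls), each a single library made from 5 pooled mice. With 1 library per group there was no replicate error, no test between groups was possible, and group and library cannot be told apart. Intervals given below are exact 95% intervals that cover counting error only, except that the limit beside a count of 0 is 3 counts over the total. The agent that caused the fibrosis, the time allowed for resolution, and the age and sex of the mice are not given in the sources used here.

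NK cells and ILC1s are lymphocytes that share the receptors NKp46 (Ncr1) and NK1.1 (Klrb1c) and the T-box factor T-bet, encoded by Tbx21. In mouse liver the T-box factor Eomes is known to mark conventional NK cells, which circulate, and to be low or absent in ILC1s, which reside in the tissue and carry CD49a (Itga1) and CXCR6. As conventional NK cells mature they gain CD11b and KLRG1, and Zeb2 acts downstream of T-bet in that step. ILC1s and less mature NK cells are generally low in CD11b, so a CD11b sort can hold fewer of them than the liver does.

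Cells were assigned by counts of unique molecular identifiers (UMIs, 1 per captured transcript). The NK gate took cells with 2 or more UMIs of Ncr1, Klrb1c and Klre1 together, at most 2 of Lyz2 and 0 of Cd3e and Cd3d, and held 1420 RES and 1535 Ctrl cells. Those with 2 or more UMIs of Itga1 and Cxcr6 together are called ILC1-like, 44 cells in RES and 108 in Ctrl. The others are called NK cells, 1376 in RES and 1427 in Ctrl, and were split by maturity into cells with at least 1 UMI of Klrg1 or Cma1 (939 in RES, 838 in Ctrl) and cells with none (437 in RES, 589 in Ctrl). T cells, with 2 or more UMIs of Cd3e and Cd3d, numbered 59 in RES and 56 in Ctrl. ILC1-like cells made up 3.1% of the NK gate in RES and 7.04% in Ctrl, and 0.658% in RES and 4.27% in Ctrl when every cell was thinned to 2000 UMIs before gating. Without cells that also had a UMI of Cd3g, a CD3 chain gene, the order turned, with ILC1-like cells at 3.03% in RES and 1.72% in Ctrl. Klrg1 or Cma1 was seen in 68.2% of RES and 58.7% of Ctrl NK cells, and in 51.1% of RES and 45.5% of Ctrl NK cells with thinned gates.

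The RES library held 4278 barcodes and 34119806 UMIs and the Ctrl library 3691 barcodes and 20379164 UMIs, with 4015 RES and 3344 Ctrl cells kept, and 56 barcodes occurred in both libraries. Median UMIs per cell were 4033.5 in RES and 3272 in Ctrl NK cells, and 6094.5 in RES and 3993.5 in Ctrl ILC1-like cells. Levels are therefore given as UMIs of the gene per 1000000 UMIs of the cell class (CPM), summed over its cells. Shares of cells with a UMI depend on depth and are given after thinning each cell to 2000 UMIs where compared. The NK receptor genes summed to 2224 CPM in RES and 2256 CPM in Ctrl ILC1-like cells and to 2604 CPM in RES and 2518 CPM in Ctrl NK cells.

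Eomes and Tbx21 are the T-box pair of this lineage, and Klf2 encodes a factor known to drive exit from tissue through S1pr1. Their upstream windows are shown because Eomes and Klf2 had the largest deficits in ILC1-like against NK cells of the 9 members measured well enough in RES, while Tbx21 differed less. Each line gives the bases from 250 to 51 before the RefSeq start (build GRCm38.p6, 5′ to 3′ on the gene's strand), Eomes at chr9:118477939-118478138 on the plus strand, Klf2 at chr8:72318812-72319011 on the plus strand and Tbx21 at chr11:97115382-97115581 on the minus strand. Capitals mark the E-box letters CACCTG or their reverse complement, known to be bound by ZEB proteins.
Eomes: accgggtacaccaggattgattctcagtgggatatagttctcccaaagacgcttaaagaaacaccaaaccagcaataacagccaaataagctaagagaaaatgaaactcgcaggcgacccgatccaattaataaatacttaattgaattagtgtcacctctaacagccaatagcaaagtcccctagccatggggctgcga
Klf2: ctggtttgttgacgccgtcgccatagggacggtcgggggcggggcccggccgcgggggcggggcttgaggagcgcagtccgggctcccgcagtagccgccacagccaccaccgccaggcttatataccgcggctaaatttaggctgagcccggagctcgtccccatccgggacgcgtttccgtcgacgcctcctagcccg
Tbx21: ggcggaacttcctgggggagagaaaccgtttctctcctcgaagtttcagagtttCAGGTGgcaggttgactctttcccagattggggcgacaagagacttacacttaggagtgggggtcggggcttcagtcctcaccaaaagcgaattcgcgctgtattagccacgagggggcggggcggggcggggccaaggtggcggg
The 1 match of these 3 windows lies 196 bases before the Tbx21 start. On either strand, CACCTG was found in 14.4% of 32851 RefSeq windows of the same length, and GGTGTGA, letters known from T-box sites, in 2.71%, with no match of the latter in these 3 windows. A match is a description of letters and not a bound site. RefSeq windows were matched for 8 of the 10 members, not for Zfp683 and Ikzf2. In the gene annotation of the same build (GENCODE M21) all 10 are protein-coding genes: Eomes at chr9:118478212-118486132 (plus strand), Tbx21 at chr11:97098071-97115331 (minus), Zeb2 at chr2:44983632-45117395 (minus), Id2 at chr12:25093799-25097140 (minus), Tcf7 at chr11:52252371-52283014 (minus), Prdm1 at chr10:44437177-44528501 (minus), Klf2 at chr8:72319033-72321656 (plus), Gata3 at chr2:9857078-9890034 (minus), Zfp683 at chr4:134053838-134058996 (plus) and Ikzf2 at chr1:69531214-69687245 (minus).

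**Figure D1:**
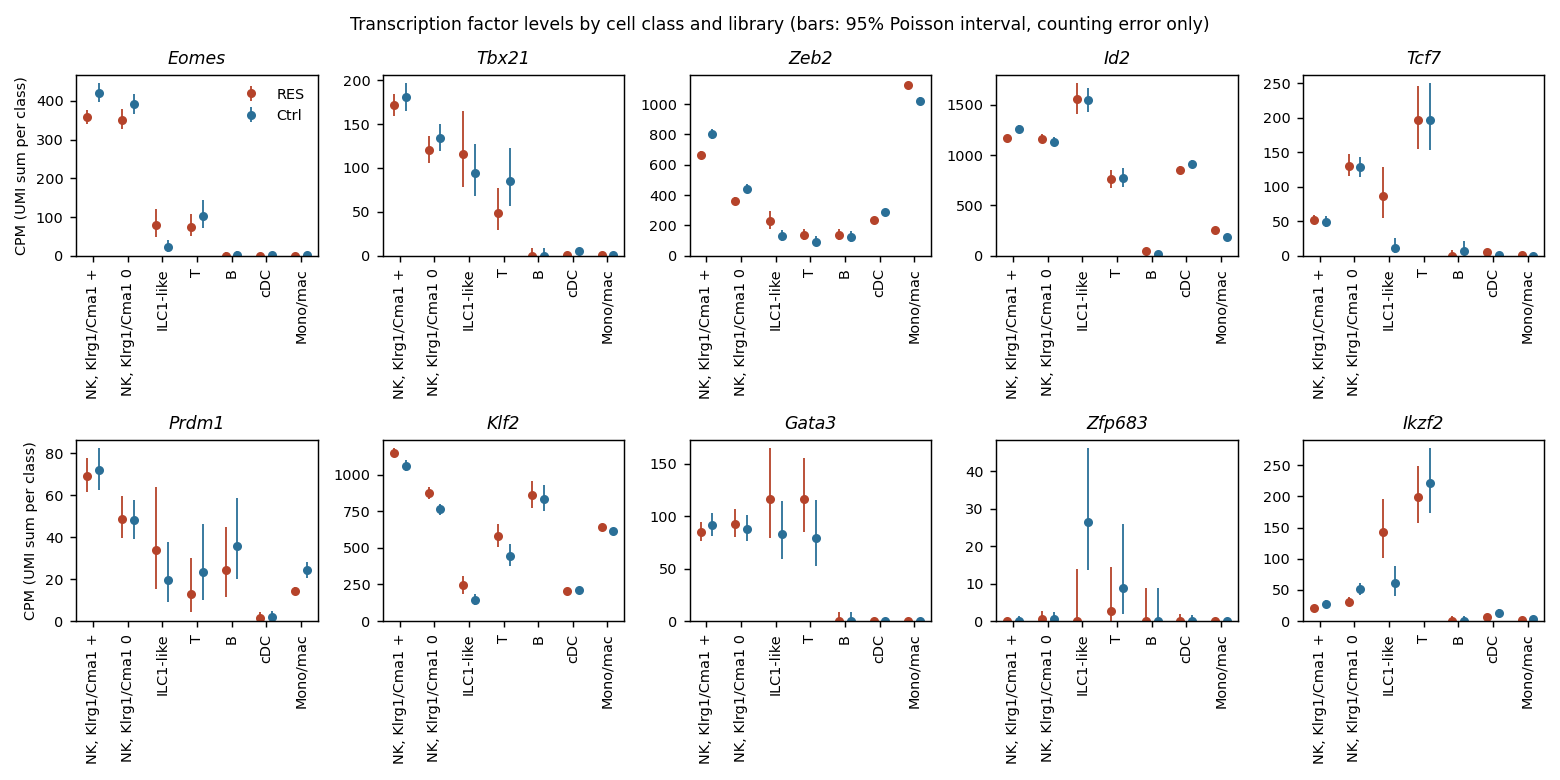
Level of each of the 10 factors (CPM, linear axes that start at 0 and differ between panels) in 7 cell classes, RES left of Ctrl; points are class sums and bars 95% Poisson intervals for counting error only. Eomes was at 359 and 422 CPM in RES and Ctrl NK cells with Klrg1 or Cma1 and at 78.6 and 22.0 CPM in RES and Ctrl ILC1-like cells, while Id2 stayed above 1000 CPM in all of these.

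ILC1-like cells were set against NK cells within each library, which asks how the factor profile of cells with the tissue-residency markers differs from that of conventional NK cells. They had less Eomes, Klf2 and Zeb2 and more Ikzf2 in both libraries, while Id2 and Gata3 stayed within 1.5-fold. A factor was counted as apart where the classes differed 1.5-fold or more and either had at least 20 CPM. In RES, 5 of the 9 members that reached this floor were apart (1 higher, 4 lower), where 29.3% of all genes tested were apart (14.2% higher, 15.1% lower). In Ctrl, 8 of 10 were apart (2 higher, 6 lower), against 28.5% of all genes (16.5% higher, 12% lower). The median member log2 ratio was -0.41 in RES and -1.20 in Ctrl, beside 0.00 and 0.05 over all genes.

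Eomes was at 78.6 CPM (95% interval 48.7 to 120.2; 21 UMIs) in RES ILC1-like cells and at 356.5 CPM (2194 UMIs) in RES NK cells, a log2 ratio of -2.18 (-2.88 to -1.56). In Ctrl it was at 22.0 CPM (10.5 to 40.4; 10 UMIs) in ILC1-like and 408.8 CPM (2106 UMIs) in NK cells, a log2 ratio of -4.22 (-5.28 to -3.33). The intervals of the classes did not overlap in either library. Over 14 alternatives the log2 ratio ran from -4.66 to -1.04 in RES and from -6.65 to -2.34 in Ctrl. With every cell thinned to 2000 UMIs, Eomes was seen in 9.09% of ILC1-like and 49.1% of NK cells in RES, and in 3.88% of ILC1-like and 51.7% of NK cells in Ctrl; unthinned shares were 29.5% and 69.1% in RES and 6.48% and 67.9% in Ctrl. As a background, 0.543% of RES and 0.666% of Ctrl monocytes or macrophages had an Eomes UMI at median depths of 9626 and 7046 UMIs, and the ILC1-like shares lie above that level.

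Tbx21, the factor shared by both lineages, was at 116.1 CPM (78.9 to 164.8) in ILC1-like and 154.5 CPM in NK cells of RES, and at 94.6 CPM (68.4 to 127.4) in ILC1-like and 160.2 CPM in NK cells of Ctrl. Its log2 ratio was -0.41 (-0.98 to 0.10) in RES and -0.76 (-1.24 to -0.32) in Ctrl. The RES interval includes no difference and the Ctrl interval lies below it, and both are smaller than the Eomes difference in the same cells. Monocytes or macrophages had 0.424 CPM in RES and 0.628 CPM in Ctrl.

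Klf2 was at 243.4 CPM in ILC1-like and 1058 CPM in NK cells of RES, a log2 ratio of -2.12 (-2.50 to -1.77), and at 142.9 CPM in ILC1-like and 931.5 CPM in NK cells of Ctrl, a log2 ratio of -2.70 (-3.08 to -2.35). Thinned to 2000 UMIs it was seen in 34.1% of ILC1-like and 82.5% of NK cells in RES, and in 12.6% of ILC1-like and 76.1% of NK cells in Ctrl. Zeb2, a repressor required for terminal NK maturation, was at 228.4 CPM in ILC1-like and 563.4 CPM in NK cells of RES (log2 ratio -1.30, -1.69 to -0.94) and at 129.7 CPM in ILC1-like and 648.4 CPM in NK cells of Ctrl (-2.32, -2.72 to -1.95). Klf2 and Zeb2 were thus lower in ILC1-like cells of both libraries, with no overlap of the class intervals. Both stayed lower by 1.5-fold or more in all 14 alternatives, but the sizes depended on the gates. Klf2 ran from -2.91 to -1.07 in RES and from -3.93 to -1.06 in Ctrl. Zeb2 ran from -2.66 to -0.83 in RES and from -3.80 to -0.79 in Ctrl. Prdm1, which encodes the repressor Blimp-1, rested on 9 UMIs in the ILC1-like cells of each library, with log2 ratios of -0.89 (-2.03 to 0.05) in RES and -1.64 (-2.78 to -0.69) in Ctrl. The RES value for Prdm1 was 1.17 with gates on thinned cells, from 9 ILC1-like cells.

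Id2, the inhibitor of E proteins needed by all innate lymphoid lineages, was at 1558 CPM in ILC1-like and 1166 CPM in NK cells of RES and at 1544 CPM in ILC1-like and 1204 CPM in NK cells of Ctrl. Its log2 ratios of 0.42 (0.27 to 0.56) in RES and 0.36 (0.24 to 0.47) in Ctrl lay above 0 and under 1.5-fold. Gata3, a factor of lymphoid development, was at 116.1 CPM in ILC1-like and 87.4 CPM in NK cells of RES (0.41, -0.16 to 0.93) and at 83.6 CPM in ILC1-like and 89.9 CPM in NK cells of Ctrl (-0.11, -0.62 to 0.37). Both Gata3 intervals include 0, so no difference was detectable at this depth.

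Tcf7, which encodes TCF-1 and marks early and less mature lymphocytes, had unlike values in the libraries. It was at 86.1 CPM (54.6 to 129.2; 23 UMIs) in ILC1-like and 78.3 CPM in NK cells of RES, a log2 ratio of 0.14 (-0.53 to 0.74). In Ctrl it was at 11.0 CPM (3.57 to 25.7; 5 UMIs) in ILC1-like and 83.7 CPM in NK cells, a log2 ratio of -2.93 (-4.56 to -1.69). Whether the libraries differ in this ratio was not tested.

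Ikzf2, which encodes Helios, was at 142.3 CPM (100.7 to 195.3; 38 UMIs) in ILC1-like and 24.2 CPM (149 UMIs) in NK cells of RES, a log2 ratio of 2.56 (2.0 to 3.08). In Ctrl it was at 61.6 CPM (40.9 to 89.0; 28 UMIs) in ILC1-like and 37.9 CPM (195 UMIs) in NK cells, a log2 ratio of 0.70 (0.07 to 1.28). It was the only member past 1.5-fold higher in ILC1-like cells of both libraries, and in Ctrl it was under 1.5-fold in 3 of 14 alternatives, at 0.57 with the gate on Itga1 alone, 0.45 without cells with Klrg1 or Cma1 and 0.43 without cells with B or dendritic cell markers. Zfp683, which encodes Hobit, a factor known to be needed for mouse liver ILC1s, had 12 UMIs in 10 of 108 Ctrl ILC1-like cells and 1 UMI among 1427 Ctrl NK cells, 26.4 CPM (13.6 to 46.1) in ILC1-like and 0.194 CPM in NK cells, a ratio of log2 7.09 (4.33 to 12.5). In RES it had 0 UMIs in 44 ILC1-like cells, which allows a share of up to 6.82% of cells with a UMI, and 1 UMI in NK cells. The gene was sparse throughout, with 2 UMIs in all kept RES cells and 19 in all kept Ctrl cells.

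The factors also differed along the counts of the 2 gate genes and not only across the gate. With 0, 1, 2, 3 and 4 or more UMIs of Itga1 and Cxcr6, Eomes was at 359.4, 255.6, 192.0, 68.7 and 16.5 CPM in RES and at 415.7, 230.1, 62.4, 30.6 and 3.61 CPM in Ctrl. Cells just outside the gate (1 UMI; 37 in RES, 52 in Ctrl) thus lay between cells with 0 and those just inside (2 UMIs; 15 in RES, 27 in Ctrl). Klf2 over the same bins was at 1062, 915.2, 356.6, 302.5 and 140.0 CPM in RES and 942.6, 643.2, 383.4, 107.1 and 54.1 CPM in Ctrl. Id2 was at 1158 CPM with 0 UMIs and 1689 CPM with 4 or more in RES, and at 1189 and 1634 CPM in Ctrl. Every bin from 1 UMI upward in RES and those of 2 and 3 UMIs in Ctrl held fewer than 40 cells, and the bin of 4 or more held 17 RES and 65 Ctrl cells.

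**Figure D2:**
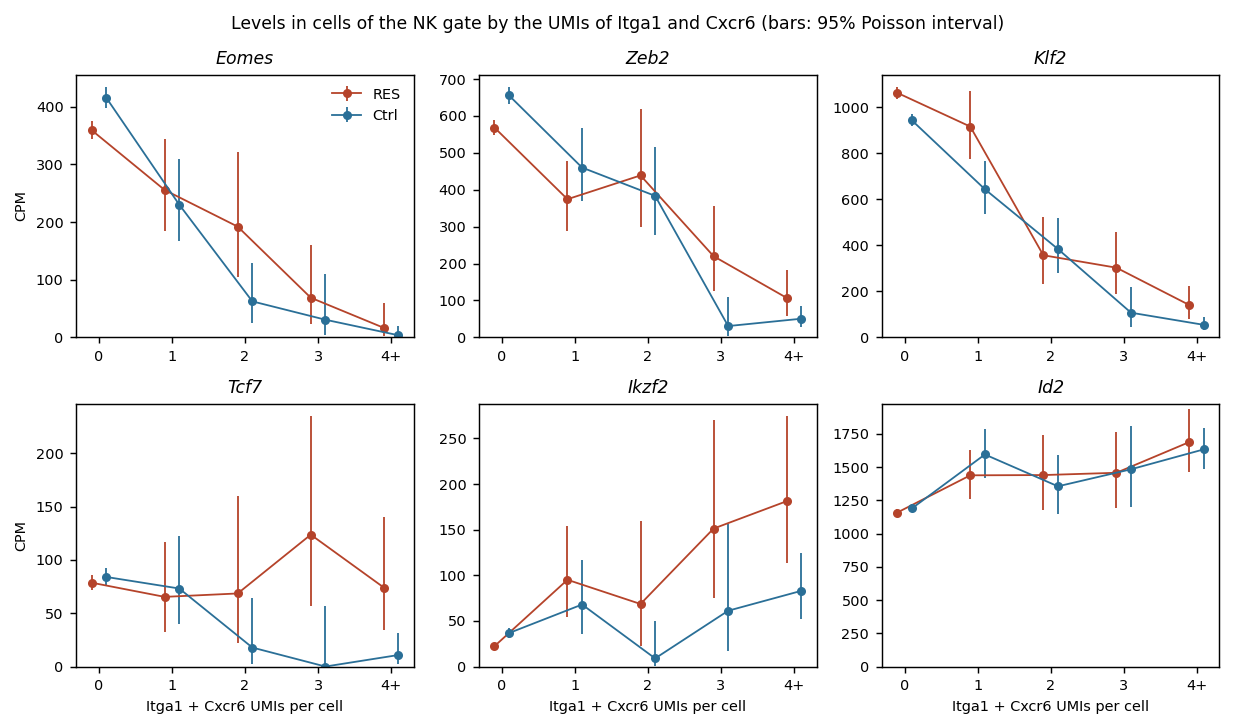
Levels of 6 factors (CPM, axes from 0) in cells of the NK gate binned by their UMIs of Itga1 and Cxcr6 together, RES and Ctrl as separate lines; bars are 95% Poisson intervals. Eomes, Zeb2 and Klf2 were lowest at 3 or more UMIs, Eomes reaching 16.5 CPM in RES and 3.61 CPM in Ctrl, and Id2 was at 1689 CPM in RES and 1634 CPM in Ctrl in the last bin.

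The ILC1-like cells were not uniform. Those that also had Klrg1 or Cma1, 11 of 44 (25.0%) in RES and 6 of 108 (5.56%) in Ctrl, had 787.5 CPM of Zeb2 in RES and 1143 CPM in Ctrl, against 88.9 CPM in RES and 63.3 CPM in Ctrl for those without. Their Eomes was 243.8 CPM in RES and 178.6 CPM in Ctrl, against 37.4 CPM in RES and 11.7 CPM in Ctrl without. These few cells held 42 of the 61 Zeb2 UMIs and 13 of the 21 Eomes UMIs of RES ILC1-like cells, and 32 of 59 and 5 of 10 in Ctrl. Cd3g, a CD3 chain transcript known also from ILC1s, was seen in 1 of 44 RES and 83 of 108 Ctrl ILC1-like cells, while the T cell receptor transcript Trac was at 7.49 CPM in RES and 15.4 CPM in Ctrl. The 6 T cell markers summed to 1075 CPM in RES and 3061 CPM in Ctrl ILC1-like cells (4 of 6 seen, Cd3e and Cd3d at 0 by the gate), against 4611 CPM in RES and 4474 CPM in Ctrl T cells. Their part in the factor levels was not tested. Within Ctrl, the 83 cells with Cd3g had 5.88 CPM of Eomes, 41.1 CPM of Klf2 and 47.0 CPM of Zeb2, against 69.9, 446 and 376 CPM in the 25 cells without. Zfp683 was seen in 8 cells with Cd3g and 2 without. Markers of B or dendritic cells were seen in 3 of 44 RES and 6 of 108 Ctrl ILC1-like cells, and the plasmacytoid dendritic genes Siglech or Ccr9 in 0 RES and 3 Ctrl cells.

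**Figure D3:**
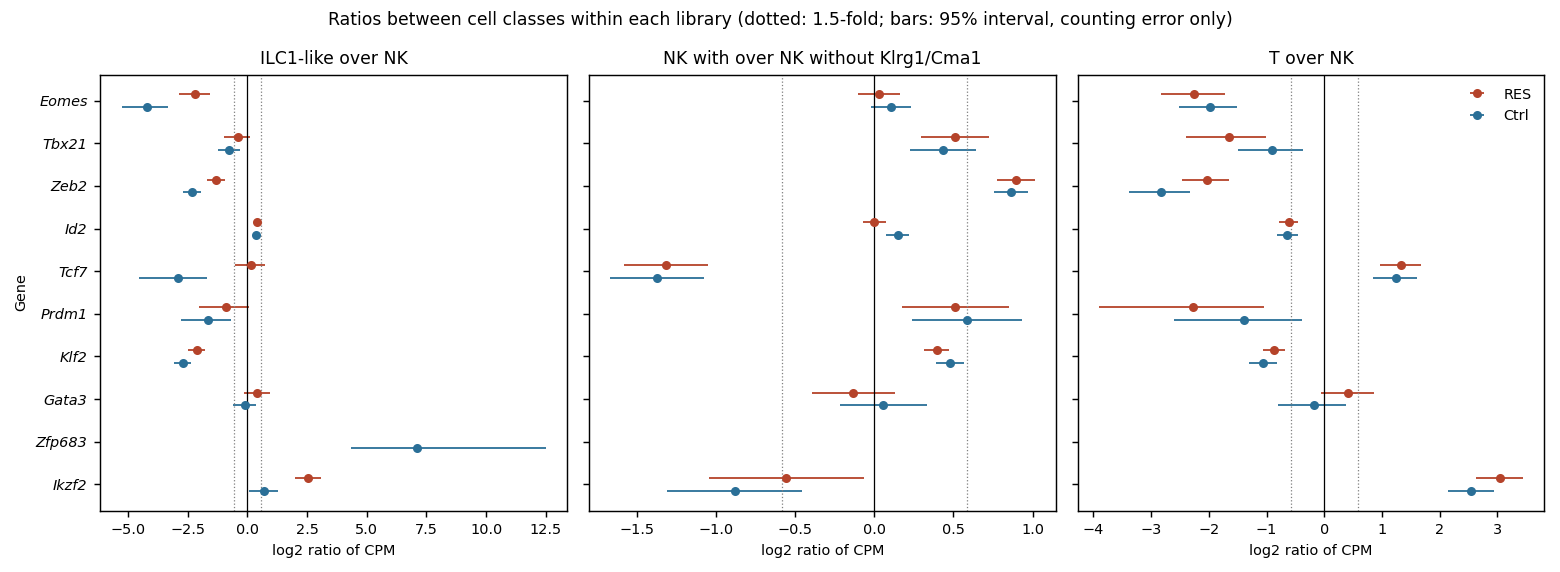
log2 ratio of CPM for each factor between cell classes, RES above Ctrl, with 95% intervals for counting error; the panels show ILC1-like over NK, NK with over NK without Klrg1 or Cma1, and T over NK, on different scales, and dotted lines mark 1.5-fold. Eomes lies at -2.18 in RES and -4.22 in Ctrl in the first panel, and Zeb2 and Tcf7 lie on opposite sides of 0 in the second.

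The split by Klrg1 and Cma1 asks which factors follow NK maturity. NK cells with either gene had more Zeb2 and less Tcf7, by nearly the same ratio in both libraries, while the counting intervals of Eomes and Gata3 included no difference. In RES 2 of 9 members were apart (Zeb2 higher, Tcf7 lower), where 3.85% of all genes were apart (1.88% higher, 1.97% lower). In Ctrl 3 of 9 were apart (Zeb2 higher, Tcf7 and Ikzf2 lower), where 5.19% of all genes were apart (2.21% higher, 2.98% lower). With the split set at 2 or more UMIs of Klrg1 and Cma1 the RES count was 4, and with Klrg1 alone the Ctrl count was 1, Tcf7, as Zeb2 was then at log2 0.53 and Ikzf2 at -0.56.

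Zeb2 was at 665.6 CPM in RES NK cells with Klrg1 or Cma1 and 358.5 CPM in those without, and at 805.3 CPM with and 442.9 CPM without in Ctrl. The log2 ratios were 0.89 (0.77 to 1.01) in RES and 0.86 (0.75 to 0.97) in Ctrl. Tcf7 was at 52.4 CPM with and 130.4 CPM without in RES, and at 49.6 CPM with and 128.2 CPM without in Ctrl, log2 ratios of -1.32 (-1.58 to -1.05) and -1.37 (-1.67 to -1.08). The 4 intervals exclude 1.5-fold. Thinned to 2000 UMIs, Tcf7 was seen in 7.50% of RES NK cells with and 20.3% of those without, and in 7.69% with and 19.2% without in Ctrl, beside 0.0608% of RES and 0 of 868 Ctrl monocytes or macrophages, which allows up to 0.346%.

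Smaller differences were seen for 3 more factors. Tbx21 was at 171.5 CPM with and 120.6 CPM without in RES (log2 0.51, 0.30 to 0.72) and at 180.4 CPM with and 133.6 CPM without in Ctrl (0.43, 0.23 to 0.64). Klf2 had log2 ratios of 0.40 (0.32 to 0.48) in RES and 0.48 (0.39 to 0.56) in Ctrl. Prdm1 had log2 ratios of 0.51 (0.17 to 0.85) in RES and 0.58 (0.24 to 0.93) in Ctrl. All 6 of these intervals lay above 0 and all 6 ratios were under 1.5-fold. Ikzf2 went the other way, at 20.9 CPM with and 30.8 CPM without in RES (-0.55, -1.04 to -0.06) and 27.7 CPM with and 51.1 CPM without in Ctrl (-0.88, -1.31 to -0.46). Eomes had log2 ratios of 0.03 (-0.10 to 0.16) in RES and 0.11 (-0.02 to 0.23) in Ctrl, and Gata3 -0.13 (-0.39 to 0.13) in RES and 0.06 (-0.21 to 0.33) in Ctrl. Id2 had log2 ratios of 0.00 (-0.07 to 0.07) in RES and 0.15 (0.07 to 0.22) in Ctrl.

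The differences were graded. With 0, 1, 2, 3 and 4 or more UMIs of Klrg1 and Cma1, Zeb2 was at 358.5, 516.5, 634.8, 662.3 and 842.5 CPM in RES and at 442.9, 657.2, 800.3, 889.3 and 1070 CPM in Ctrl, higher at each step in both. Tcf7 over the same bins was at 130.4, 83.7, 62.0, 33.4 and 23.2 CPM in RES and at 128.2, 67.0, 55.8, 23.9 and 22.1 CPM in Ctrl, lower at each step in both. Eomes had no such course: 351.6, 369.4, 407.6, 376.7 and 303.2 CPM in RES and 391.8, 453.8, 382.0, 374.3 and 433.6 CPM in Ctrl. Split by which gene was seen, RES cells with Klrg1 alone had 300.1 CPM of Eomes and those with Cma1 alone 421.9 CPM, and in Ctrl the values were 366.9 CPM with Klrg1 alone and 459.2 CPM with Cma1 alone. Zeb2 was highest in cells with both genes, 772.9 CPM in RES and 989.2 CPM in Ctrl.

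**Figure D4:**
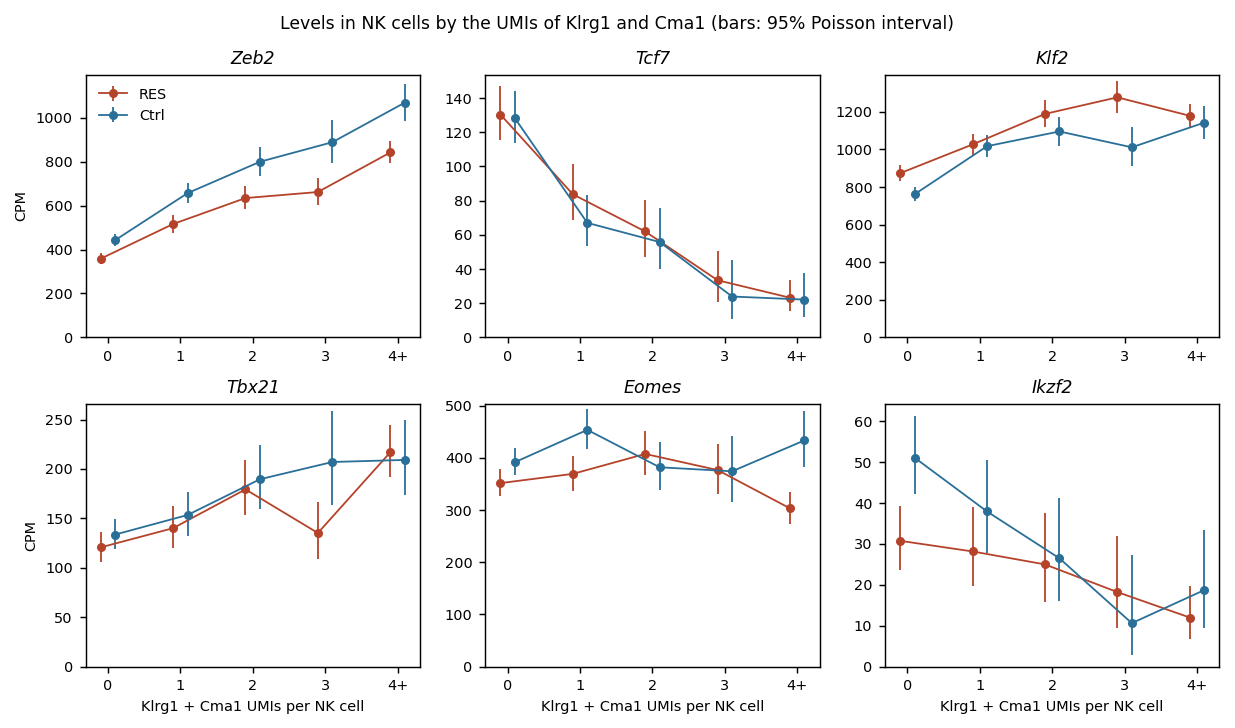
Levels of 6 factors (CPM, axes from 0) in NK cells binned by their UMIs of Klrg1 and Cma1 together, RES and Ctrl as separate lines; bars are 95% Poisson intervals. Zeb2 was higher and Tcf7 lower at every step in both libraries, reaching 842.5 and 23.2 CPM in RES and 1070 and 22.1 CPM in Ctrl in the last bin, while Eomes had no such course.

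Within single NK cells thinned to 2000 UMIs, Tcf7 was seen in 8.0% of cells with a Zeb2 UMI and 17.1% of cells without in RES, and in 8.21% with and 20.3% without in Ctrl. The same order held within each maturity class of both libraries, for example 5.35% with and 12.3% without Zeb2 among RES cells with Klrg1 or Cma1. Klf2 and Zeb2 were seen together more often: Klf2 was in 86.8% of cells with and 75.7% without Zeb2 in RES, and in 82.2% with and 64.5% without in Ctrl. Among cells with Klrg1 or Cma1 the gap was smaller, 86.9% with and 83.8% without Zeb2 in RES and 84.4% and 77.2% in Ctrl. Among cells with neither gene it was 86.2% with and 65.7% without Zeb2 in RES and 77.6% and 55.0% in Ctrl. Eomes was seen in 47.0% of cells with and 49.8% of cells without Tbx21 in RES, and in 53.1% with and 51.2% without in Ctrl. These shares come from cells of 1 library each and are descriptions.

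T cells, set against NK cells, had more Tcf7 and Ikzf2 and less of 6 other members in both libraries (Eomes, Tbx21, Zeb2, Id2, Prdm1 and Klf2). In each library 8 of 9 members were apart, 2 higher and 6 lower. Of all genes, 33.1% were apart in RES (12.3% higher, 20.7% lower) and 36.3% in Ctrl (13.9% higher, 22.4% lower). Id2 was near the cut, at log2 -0.62 in RES and -0.64 in Ctrl. It stayed past 1.5-fold in 6 of 9 alternatives in RES and 7 of 9 in Ctrl. Tcf7 was at 196.4 CPM in T and 78.3 CPM in NK cells of RES and at 197.2 CPM in T and 83.7 CPM in NK cells of Ctrl. Ikzf2 was at 199.0 CPM in T and 24.2 CPM in NK cells of RES and at 220.7 CPM in T and 37.9 CPM in NK cells of Ctrl. Gata3 was within 1.5-fold, at 116.3 CPM in T and 87.4 CPM in NK cells of RES and at 79.5 CPM in T and 89.9 CPM in NK cells of Ctrl. T cells with 2 or more NK receptor UMIs (18 in RES, 23 in Ctrl) had 1098 CPM of Id2 in RES and 1241 CPM in Ctrl, against 513.6 CPM in RES and 453.1 CPM in Ctrl for those with 0 (35 in RES, 29 in Ctrl). Their Eomes was 162.6 CPM in RES and 185.7 CPM in Ctrl, against 36.4 CPM in RES and 58.5 CPM in Ctrl.

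Across all 7 classes the members fell into those held by lymphocytes of the NK and T lineages and those shared with myeloid or B cells. Gata3 had 0 UMIs in B and conventional dendritic cells of both libraries and 0.121 CPM in RES and 0.157 CPM in Ctrl monocytes or macrophages. Zeb2 was higher in monocytes or macrophages (1125 CPM in RES, 1024 CPM in Ctrl) than in any lymphocyte class, and Klf2 in B cells was at 858.5 CPM in RES and 835.9 CPM in Ctrl. Prdm1 in monocytes or macrophages was at 14.2 CPM in RES and 24.2 CPM in Ctrl (234 UMIs in RES, 154 in Ctrl), a log2 ratio of -0.77 (-1.07 to -0.47), the 1 of 4 members at the floor that was apart there, where 12.1% of all genes were apart. Conventional dendritic cells had 853.1 CPM of Id2 in RES and 907.3 CPM in Ctrl. In Ctrl the order for Eomes was NK with Klrg1 or Cma1, NK without, T and ILC1-like cells, and in RES ILC1-like and T cells had overlapping intervals, 78.6 CPM (48.7 to 120.2) in ILC1-like and 75.0 CPM (50.2 to 107.6) in T cells. For Ikzf2, T cells were highest and ILC1-like cells next, with intervals that overlapped in RES (157.1 to 248.7 in T and 100.7 to 195.3 in ILC1-like cells) and not in Ctrl (173.6 to 276.7 in T and 40.9 to 89.0 in ILC1-like cells).

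RES was set against Ctrl within each class, which asks whether the factor profile of these cells differed after fibrosis had resolved. In all NK cells together Ikzf2 was at 24.2 CPM in RES and 37.9 CPM in Ctrl (log2 -0.64, -0.96 to -0.33). The share of NK cells with an Ikzf2 UMI was 8.43% in RES and 8.13% in Ctrl. Thinned to 1000 UMIs it was 2.77% in RES and 2.70% in Ctrl, and thinned to 2000 UMIs 3.81% in RES and 5.69% in Ctrl. A single cell held up to 4 Ikzf2 UMIs in RES and up to 10 in Ctrl, while the interval takes UMIs as independent. None of 9 members was apart in NK cells with Klrg1 or Cma1, where 2.17% of all genes were apart (1.28% higher, 0.893% lower). In NK cells without them 1 of 9 was apart (Ikzf2, 30.8 CPM in RES and 51.1 CPM in Ctrl, log2 -0.73, -1.20 to -0.28), where 5.66% of all genes were apart (2.67% higher, 2.99% lower). With 9 members, both counts are near these shares. In NK cells without Klrg1 or Cma1, Cd3g was seen in 1.60% of RES and 3.06% of Ctrl cells. Trac was seen there in 2.75% of RES and 2.55% of Ctrl cells, and Siglech in 0% of RES and 0.34% of Ctrl cells. The part of such cells in the Ikzf2 value was not tested. Zeb2 was at 665.6 CPM in RES and 805.3 CPM in Ctrl with the maturity genes (-0.27, -0.35 to -0.19) and at 358.5 CPM in RES and 442.9 CPM in Ctrl without them (-0.31, -0.45 to -0.17). Klf2 was at 1149.8 CPM in RES and 1061 CPM in Ctrl with them (0.12, 0.05 to 0.18). Tcf7 differed by log2 0.08 (-0.23 to 0.39) with them and 0.02 (-0.22 to 0.27) without.

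In ILC1-like cells 7 of 10 members were apart between the libraries (6 higher in RES, 1 lower), where 36.8% of all genes were apart in these small classes (14.9% higher, 21.9% lower). Tcf7 was at 86.1 CPM in RES and 11.0 CPM in Ctrl (log2 2.97, 1.54 to 4.72), and Eomes at 78.6 CPM in RES and 22.0 CPM in Ctrl (1.84, 0.69 to 3.09). Ikzf2 was at 142.3 CPM in RES and 61.6 CPM in Ctrl (1.21, 0.47 to 1.97). Zeb2 (0.82, 0.28 to 1.36), Klf2 (0.77, 0.25 to 1.29) and Prdm1 (0.77, -0.74 to 2.28) were also higher in RES. ILC1-like cells with Klrg1 or Cma1 were 25.0% of the class in RES and 5.56% in Ctrl. Without them Zeb2 was at 88.9 CPM in RES and 63.3 CPM in Ctrl (log2 0.49) and Prdm1 at log2 0.58, both under 1.5-fold, while Klf2 was at 1.13 and Eomes at 1.68. Zfp683 had 0 UMIs in RES and 12 in Ctrl, and 8 of its 10 Ctrl cells also had Cd3g. With RES set to a floor of 3 counts, it was 2.35-fold under the Ctrl point value. The counting error of the 12 Ctrl UMIs is not included in that ratio. Prdm1 was at -0.10 with the gate on Itga1 alone, and Ikzf2 at -0.46 when cells were thinned to 2000 UMIs before gating, which left 9 RES and 59 Ctrl ILC1-like cells. Tbx21, Id2 and Gata3 were within 1.5-fold, Id2 at 1558 CPM in RES and 1544 CPM in Ctrl.

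The share of ILC1-like cells with Cd3g differed between the libraries, so the members are also given among the cells with no Cd3g UMI (43 in RES, 25 in Ctrl). Eomes was at 80.5 CPM in RES and 69.9 CPM in Ctrl there (log2 0.20), and Ikzf2 at 145.7 CPM in RES and 113.7 CPM in Ctrl (0.36). Zeb2 and Klf2 were lower in RES in these cells, Zeb2 at 233.9 CPM in RES and 375.9 CPM in Ctrl (-0.68) and Klf2 at 249.3 CPM in RES and 445.9 CPM in Ctrl (-0.84). Tcf7 was still higher in RES, at 88.2 CPM (23 UMIs) in RES and 26.2 CPM (3 UMIs) in Ctrl (1.75). The direction for Zeb2 and Klf2 and the size for Eomes and Ikzf2 thus changed when cells with Cd3g were left out. Leaving out cells with Klrg1 or Cma1 at the same time was not tried, so the part of each was not tested. In T cells 3 of 9 members were apart between the libraries (Zeb2 higher, Tbx21 and Prdm1 lower in RES), a share near the 35.3% of all genes that were apart (16.5% higher, 18.8% lower). The counting intervals of all 3 include 0, with Zeb2 at log2 0.59 (-0.08 to 1.27), Tbx21 at -0.80 (-1.71 to 0.09) and Prdm1 at -0.87 (-2.82 to 0.93).

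Other genes of the same lineages were counted from lists. Of 14 ILC1 genes, 11 of the 12 at the floor were higher in ILC1-like than NK cells in RES and 13 of 13 in Ctrl, among them Gzmc, a granzyme, at 280.9 CPM in ILC1-like and 2.11 CPM in NK cells of RES and 644.3 CPM in ILC1-like and 10.3 CPM in NK cells of Ctrl. Of 14 genes of the mature NK programme, 9 were lower in ILC1-like cells in each library and 1 was higher in Ctrl, Gzmb, which encodes granzyme B, at 1786 CPM in ILC1-like and 717.3 CPM in NK cells. Of all genes, 14.2% were higher and 15.1% lower in RES and 16.5% were higher and 12% lower in Ctrl. The ILC1 list was also higher in T than NK cells, with 9 of 11 genes at the floor in RES (2 lower) and 11 of 12 in Ctrl. In that comparison 12.3% of all genes were higher in RES and 13.9% in Ctrl. The list was thus raised against NK cells in both ILC1-like and T cells. Its genes, Cd3g included, summed to 2955 CPM in ILC1-like and 2502 CPM in T cells of RES. In Ctrl the sums were 4108 CPM in ILC1-like and 2340 CPM in T cells. ILC1-like and T cells were not compared gene by gene. Klra4, which encodes the receptor Ly49D, was at 134.8 CPM in ILC1-like and 876.9 CPM in NK cells of RES and at 28.6 CPM in ILC1-like and 851.1 CPM in NK cells of Ctrl. Among NK cells, 10 of 12 genes of less mature NK cells in RES and 10 of 11 in Ctrl were lower in cells with Klrg1 or Cma1, Il7r, the interleukin 7 receptor gene, at 8.28 CPM with and 90.4 CPM without in RES and at 6.16 CPM with and 59.2 CPM without in Ctrl. Of the mature NK genes 7 of 14 in RES and 4 of 14 in Ctrl were higher there, Cx3cr1, a chemokine receptor gene, at 90.6 CPM with and 15.6 CPM without in RES and 118.1 CPM with and 19.7 CPM without in Ctrl. Of all genes, 1.88% were higher and 1.97% lower there in RES, and 2.21% were higher and 2.98% lower in Ctrl.

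Of 32 other transcription factors of these lineages, 7 were higher and 10 lower in ILC1-like than NK cells among 27 at the floor in RES, and 5 higher and 11 lower among 28 in Ctrl, beside the same shares of all genes as above. Rora was at 123.6 CPM in ILC1-like and 25.2 CPM in NK cells of RES, and Bcl11b, a T lineage factor, at 101.1 CPM in ILC1-like and 10.7 CPM in NK cells of Ctrl. Lef1, the relative of Tcf7, was at 37.4 CPM in RES and 6.60 CPM in Ctrl ILC1-like cells. Of 7 egress and homing genes, 4 of 6 at the floor were lower and 1 was higher in ILC1-like than NK cells in each library. Of all genes, 15.1% were lower and 14.2% higher in RES, and 12% were lower and 16.5% higher in Ctrl. Klf3, a relative of Klf2, was among the lower genes. It was at 104.9 CPM in ILC1-like and 228.0 CPM in NK cells of RES and 50.6 CPM in ILC1-like and 244.4 CPM in NK cells of Ctrl. Of 11 immediate-early genes, which can be raised by tissue dissociation, 5 of 8 at the floor were higher in RES than Ctrl ILC1-like cells, where 14.9% of all genes were. In NK cells 0 of 8 were apart between the libraries with Klrg1 or Cma1 and 1 of 8 was lower in RES without them, Egr1, at 28.3 CPM in RES and 43.9 CPM in Ctrl (log2 -0.63). Their part in the factor differences was not tested.

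The genes most like each factor were ranked by Pearson's r of log2(CPM + 10) over 14 sums (7 classes in 2 libraries) among 5094 genes. Eomes was closest to Klra8 (r = 0.99), Klra7 (0.98) and Gprin3 (0.98), and Tbx21 to Samd3 (0.99), Sytl3 (0.99) and Tnik (0.99). Zeb2 was closest to Nfic (0.94), Plek (0.92) and Neat1 (0.92), and Klf2 to Rasa3 (0.92), 2310001H17Rik (0.89) and Itga4 (0.87). Tcf7 was closest to Lef1 (0.96), Lsm1 (0.95) and Sidt1 (0.95), Id2 to Rwdd1 (0.97), Ccnd3 (0.96) and Selplg (0.94), and Prdm1 to Oxr1 (0.95), Malt1 (0.92) and Dock2 (0.90). Gata3 was closest to Skap1 (0.99), Gm2682 (0.99) and Ms4a4b (0.99), Ikzf2 to Rora (0.96), Trbc2 (0.94) and Lat (0.94), and Zfp683 to Atp8a2 (0.96), Ccdc136 (0.95) and Klra5 (0.93). The 14 sums share libraries and lineages, so these are descriptions of likeness, and for Zfp683 they rest on 1 class with 12 UMIs.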

How the data were processed

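The authors deposited a matrix of UMI counts per gene and cell for each library, made with Cell Ranger 3.1.0 per the file headers, on mm10 per the submitters' processing notes; the gene annotation is not given in the sources used here. Single-cell 3' libraries were made from pooled sorted cells, per the labels' protocols. Barcodes with under 200 genes or over 10% mitochondrial UMIs were left out (121 in RES, 245 in Ctrl), as were the top 0.8% per 1000 barcodes by Scrublet score (142 in RES, 102 in Ctrl; scanpy 1.11.5). Cells were gated by the stated UMI rules, with B, conventional dendritic and monocyte or macrophage cells gated by Cd79a, Cd79b and Ms4a1, by Flt3, Xcr1, Clec9a and Cd209a, and by Lyz2 and Csf1r. A cell can belong to a wrong gate when a gate gene is missed at low depth.

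Counts were summed per class and library and scaled to CPM. Sums have Poisson intervals, shares Clopper-Pearson intervals and ratios exact conditional binomial intervals (scipy 1.17.1); the ratio code was tested on simulated data. A class at 0 was set to 3 counts. No model across genes was used, as there is 1 library per group. The members and the gene lists were chosen with earlier results of these data known. Named were all 10 members, up to the 2 highest and 2 lowest genes of each list per comparison, with examples of these given, and the 3 genes most like each member. The values of 1 list gene are not reported here. Alternatives changed the gates, depth, scaling, filters and floor.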

Additional observations from a re-analysis of the deposited data

Results flagged for a closer look

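Prdm1 and Ikzf2 had RES over Ctrl ratios of opposite sign in different cell classes, each past 1.5-fold. Prdm1 had a log2 ratio of 0.77 in ILC1-like cells (33.7 CPM in RES, 19.8 CPM in Ctrl, 9 UMIs in each) and -0.87 in T cells (12.9 CPM in RES, 23.5 CPM in Ctrl, from 5 UMIs in RES and 8 in Ctrl), and both counting intervals include 0. Ikzf2 had a log2 ratio of 1.21 in ILC1-like cells (142.3 CPM in RES, 61.6 CPM in Ctrl) and -0.73 in NK cells without Klrg1 or Cma1 (30.8 CPM in RES, 51.1 CPM in Ctrl), and neither counting interval includes 0. These intervals take UMIs as independent, which UMIs of the same cell need not be. The ILC1-like value was 0.36 among cells without Cd3g and -0.46 with thinned gates. The difference between classes was not tested for either gene, as each group is 1 library.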

How the results depend on the processing

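No paired analysis was possible because each group is 1 library. Of 106 counts of members apart, 104 stayed within 1.5 times the reported count. With maturity set at 2 or more UMIs of Klrg1 and Cma1 the RES count was 4 in place of 2. With maturity from Klrg1 alone the Ctrl count was 1 (Tcf7) in place of 3, with Zeb2 at 0.53 and Ikzf2 at -0.56 on the log2 scale. These counts ignore direction and which members make them up. The count for RES over Ctrl in ILC1-like cells without Cd3g is among the 104. There Zeb2 and Klf2 turned from higher to lower in RES, and Eomes and Ikzf2 fell under 1.5-fold. Of 980 member ratios, 875 moved by less than their counting interval, 98 moved further, and 7 that were past 1.5-fold as reported changed sign; sign changes of ratios within 1.5-fold are not among the 7. The first of the 7 was Prdm1 in ILC1-like over NK of RES at 1.17 when cells were thinned to 2000 UMIs before gating. The other 6 concern RES over Ctrl. In ILC1-like cells, Prdm1 was at -0.10 with the gate on Itga1 alone and -0.21 on Cxcr6 alone, Ikzf2 at -0.46 with thinned gates, and Zeb2 at -0.68 and Klf2 at -0.84 without cells with Cd3g. In T cells, Zeb2 was at -0.10 without NK receptor UMIs. The Cd3g alternative leaves out 83 Ctrl cells by construction. The cause of these sign changes was not tested. The alternatives on Itga1 alone, Cxcr6 alone, Klrg1 alone, Cd3g, ILC1-like cells without Klrg1 or Cma1 and B or dendritic markers were chosen after seeing the data. Of 280 shares of cells with a UMI, 165 moved by more than their interval, as shares depend on depth. The 44 RES ILC1-like cells limit every value on them.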

Other observations

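Id2 in monocytes or macrophages was at 255.3 CPM in RES and 187.8 CPM in Ctrl, a log2 ratio of 0.44 (0.35 to 0.54), under 1.5-fold. In NK cells of either maturity class Cxcr4, a chemokine receptor gene of homing, was higher in RES, at 61.6 CPM in RES and 21.6 CPM in Ctrl with Klrg1 or Cma1 and at 71.3 CPM in RES and 31.4 CPM in Ctrl without. Gzmb, which encodes granzyme B, was at 520.5 CPM in RES and 1786 CPM in Ctrl ILC1-like cells, and the membrane protein gene Tmem176b at 393.2 CPM in RES and 48.4 CPM in Ctrl ILC1-like cells. In that comparison 36.8% of all genes were apart. Cd3g was seen in 1 of 44 RES and 83 of 108 Ctrl ILC1-like cells, and its part in the Gzmb and Tmem176b values was not tested.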
